A study of Mus musculus with 9 samples.

Results

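The MHC class I and immunoproteasome genes form a set of 10 genes, among 51826 genes counted, that build the peptide display of the cell. They were taken by symbol from the count table: the class I heavy chains H2-K1 and H2-D1, their light chain B2m, the peptide transporter and loading genes Tap1, Tap2 and Tapbp, the inducible proteasome subunits Psmb8, Psmb9 and Psmb10, and the transactivator Nlrc5. All 10 were found and all 10 had enough counts to be tested. RNA with poly(A) tails was sequenced from RAW 264.7, an established macrophage-like line of virus-transformed cells from a BALB/c mouse. The calycosin plus LPS group (3 libraries) was given 100 µg/mL calycosin, a plant isoflavone, for 24 h and then 300 ng/mL lipopolysaccharide (LPS, a bacterial cell wall component) for 6 h. The LPS group (3 libraries) had the LPS step alone, and the vehicle group (3 libraries) received solvent. No group had calycosin without LPS, all libraries come from 1 cell line, and the replicates are named biological by the labels.

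Class I molecules show peptides from the inside of the cell to CD8+ T cells. Proteasomes cut proteins into peptides, the TAP transporter pumps these into the endoplasmic reticulum, tapasin holds the empty heavy chain and light chain beside TAP, and the loaded complex travels to the cell surface. Interferons raise many genes of this route through IRF factors and through NLRC5, a nuclear activator of class I promoters, and in macrophages LPS induces interferon beta, which acts back on the same cells.

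The libraries held 27784737 to 38524105 gene counts. The 10 genes together took a share of all counts that ran from 0.452% to 0.584% in calycosin plus LPS cells, from 0.487% to 0.548% with LPS alone and from 0.246% to 0.291% with vehicle. One library of the calycosin plus LPS group, replicate 2, and one of the vehicle group, replicate 3, stood apart by their mitochondrial transcripts. These made up 17.2%, 7.45% and 19.4% of the counts of calycosin plus LPS replicates 1 to 3, between 13.0% and 14.7% with LPS alone, and 3.79%, 3.68% and 21.9% for vehicle replicates 1 to 3. The cells carried macrophage transcripts. Of 8 macrophage markers 7 exceeded 1 CPM (counts scaled to the effective library size) in a library, and the exception was Mertk, with 4 counts at most. Of 19 markers of other cell types, 8 were at 0 in all libraries, among them Cd8a, Ncr1 and Epcam, and 16 never reached 10 counts. The summed level of those 19 was 1.83 to 2.85 CPM in calycosin plus LPS cells, 5.90 to 8.24 CPM in LPS cells and 1.22 to 1.36 CPM in vehicle cells, with Cdh5 (133 counts at most), Xcr1 (52 counts at most) and Zbtb46 (31 counts at most) the only ones to reach 10 counts. The part of these transcripts in the results was not tested. In bulk RNA, fewer expressing cells and less RNA per cell cannot be told apart.

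Per transcript length, B2m was the most abundant of the 10 in each group. Its TPM, a level scaled for transcript length and library depth, was 5149 ± 590.1 in calycosin plus LPS cells, 5371 ± 524 in LPS cells and 3073 ± 132 in vehicle cells (SD, n = 3 each). H2-D1 came next, followed by Tapbp and H2-K1. H2-D1 had 647 ± 283 TPM in calycosin plus LPS cells, 523 ± 57.1 TPM in LPS cells and 669 ± 378 TPM in vehicle cells. In LPS cells the ranges of B2m, H2-D1, Tapbp and H2-K1 did not overlap, whereas those of the neighbours from H2-K1 through Psmb8, Tap1, Nlrc5 and Psmb10 did. Psmb9 was the lowest in calycosin plus LPS cells at 47.2 ± 21.8 TPM and in LPS cells at 37.2 ± 5.99 TPM, while in vehicle cells Tap1 (21.4 ± 11.2 TPM) and Psmb9 (21.8 ± 14.5 TPM) had overlapping ranges at the bottom.

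**Figure D1:**
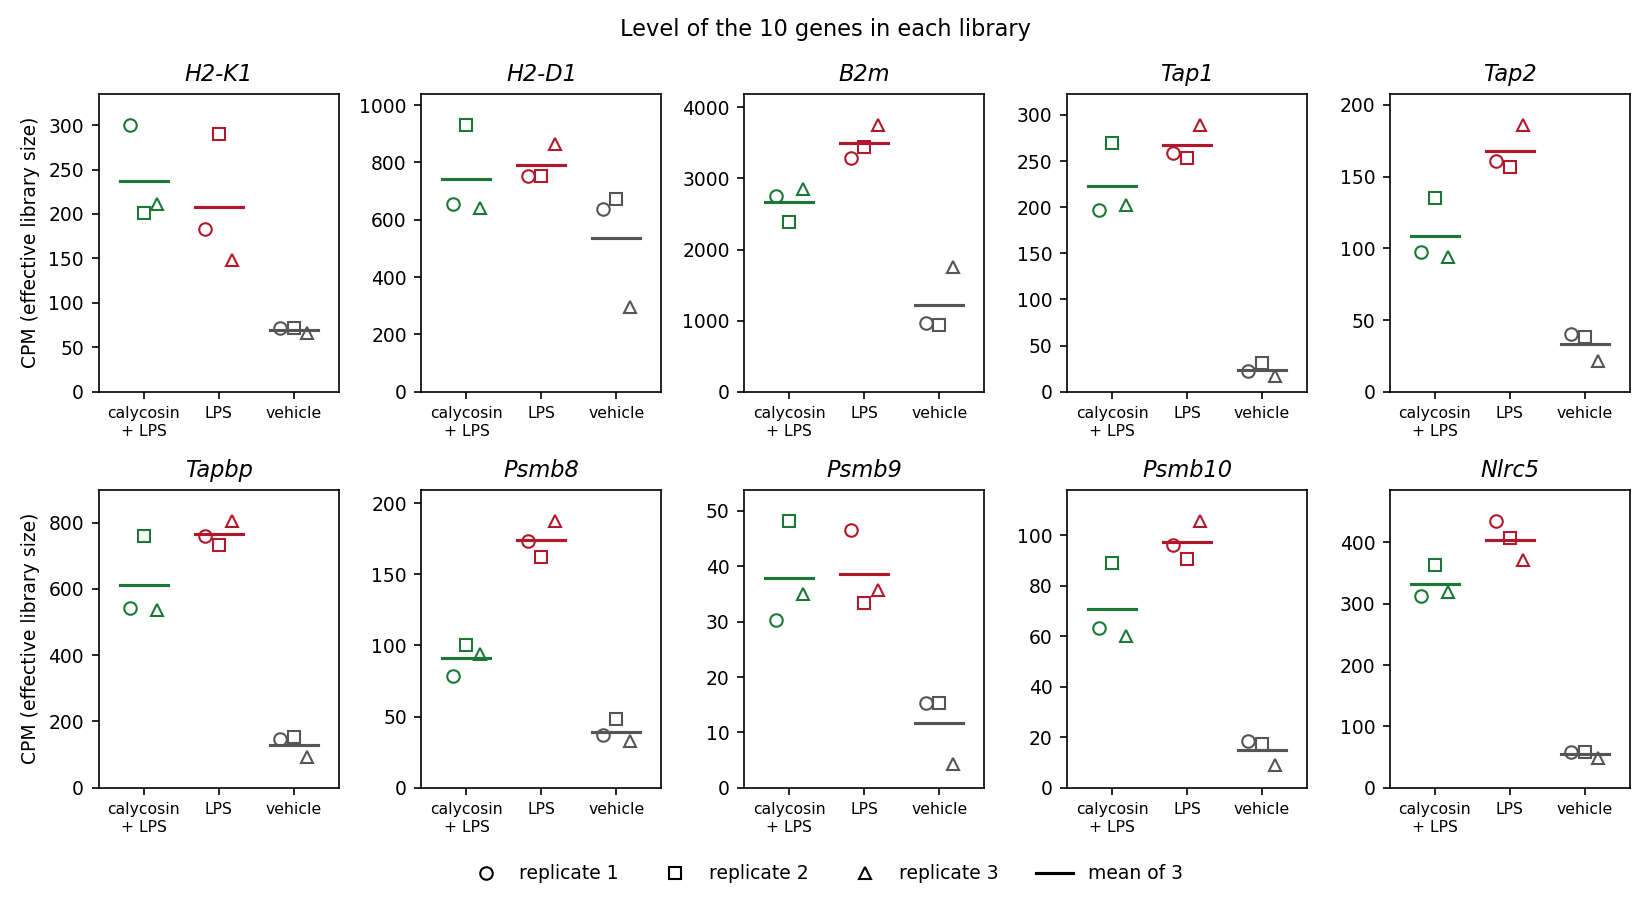
Level of the 10 genes in each library, in CPM on linear axes that start at 0, for calycosin plus LPS, LPS and vehicle cells from left to right; symbols mark the replicates and bars the mean of 3. All LPS libraries lie above all vehicle libraries for all 10 genes, and the calycosin plus LPS libraries of Psmb8 (78.3 to 100.1 CPM) lie between the LPS libraries (162 to 187 CPM) and the vehicle libraries (33.0 to 48.1 CPM).

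The 3 genes of the class I molecule itself differed in their response to LPS. Both heavy chain genes lie on chromosome 17 in the mouse H2 complex, H2-K1 (ENSMUSG00000061232) at chr17:33996017-34000347 on the minus strand and H2-D1 (ENSMUSG00000073411) at chr17:35262730-35267499 on the plus strand. B2m (ENSMUSG00000060802), which encodes beta-2-microglobulin, lies apart at chr2:122147686-122153083 on the plus strand (GRCm38). H2-K1 had 299.6, 201 and 211 CPM in calycosin plus LPS replicates 1 to 3, 183, 290.2 and 149 CPM in LPS replicates 1 to 3, and 71.4, 71.8 and 65.8 CPM in vehicle replicates 1 to 3. The vehicle libraries lay close together and below all others, and the libraries of the other groups overlapped. With LPS, H2-K1 rose 2.98-fold over vehicle (log2 fold change 1.57 ± 0.25 SE, edgeR quasi-likelihood adjusted p = 0.000431).

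H2-D1 had 656, 929 and 642 CPM in calycosin plus LPS cells, 754, 754 and 866 CPM in LPS cells, and 638, 674 and 296 CPM in vehicle cells. Its vehicle replicate 3 was less than 0.5 times replicates 1 and 2, and the LPS libraries lay above all vehicle libraries. The difference between LPS and vehicle was a log2 fold change of 0.56 ± 0.28 SE (95% interval -0.07 to 1.20), which did not pass the test (edgeR adjusted p = 0.118). B2m had 2759, 2382 and 2855 CPM in calycosin plus LPS cells, 3285, 3449 and 3746 CPM in LPS cells, and 962, 945 and 1756 CPM in vehicle cells. Here vehicle replicate 3 was the high one of its group, the opposite of H2-D1, and the 3 groups did not overlap. B2m rose 2.86-fold with LPS (log2 fold change 1.52 ± 0.24 SE, edgeR adjusted p = 0.00054). RAW 264.7 carries the H-2 type of BALB/c mice and the mm10 genome that of C57BL/6, and the heavy chain genes differ between these types and resemble their class Ib relatives, so reads of H2-K1 and H2-D1 may have been lost or shared between genes. How reads with several matches were counted is not given in the sources used here.

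The windows around the transcription starts of these 3 genes, 250 bases before and 50 bases after the start, are shown to set the letters shared by the heavy chains beside those of B2m. Sequences are RefSeq promoter windows of GRCm38.p6, 5′ to 3′ on the gene's strand, for H2-K1 at chr17:34000298-34000597 (minus strand), H2-D1 at chr17:35262844-35263143 (plus strand) and B2m at chr2:122147437-122147736 (plus strand). Capitals mark matches, on either strand, to 4 patterns. These were GAAA with any 2 bases before a further GAAA (core of the interferon-stimulated response element), TTC with any 3 bases before GAA (gamma-activated site), and 2 forms of the NF-kappaB site, GGG with any 2 bases before TTTCC (the first form) and GGG with any 3 bases before TCCC (the second form).
H2-K1: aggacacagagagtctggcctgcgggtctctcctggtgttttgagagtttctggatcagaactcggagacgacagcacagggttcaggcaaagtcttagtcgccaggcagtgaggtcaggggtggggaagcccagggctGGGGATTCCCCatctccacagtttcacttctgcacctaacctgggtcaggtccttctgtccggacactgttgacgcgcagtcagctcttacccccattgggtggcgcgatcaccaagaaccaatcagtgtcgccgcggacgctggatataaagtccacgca
H2-D1: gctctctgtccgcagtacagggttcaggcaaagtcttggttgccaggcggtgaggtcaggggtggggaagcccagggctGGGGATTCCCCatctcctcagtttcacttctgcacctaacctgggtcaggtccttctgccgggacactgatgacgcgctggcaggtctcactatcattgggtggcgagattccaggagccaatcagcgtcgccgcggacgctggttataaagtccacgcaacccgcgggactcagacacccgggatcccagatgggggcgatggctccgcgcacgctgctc
B2m: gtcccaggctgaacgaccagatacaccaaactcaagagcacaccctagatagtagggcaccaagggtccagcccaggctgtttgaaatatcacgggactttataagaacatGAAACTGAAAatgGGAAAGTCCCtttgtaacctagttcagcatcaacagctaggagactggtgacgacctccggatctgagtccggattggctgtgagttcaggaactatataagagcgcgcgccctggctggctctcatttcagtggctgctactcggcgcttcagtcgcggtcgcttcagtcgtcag
The H2-K1 and H2-D1 windows were 88.3% identical over 239 aligned bases and hold the same match, GGGGATTCCC, at positions -111 and -171 from the start, with GGGGAATCCC overlapping it on the other strand. The B2m window holds GAAACTGAAA at position -139 and, after 3 further bases, GGGACTTTCC on the other strand at position -126. Among 32851 windows of the same kind, 5.55% hold the second NF-kappaB form, 3.44% the interferon core and 1.63% the first NF-kappaB form on either strand. H2-K1 has a second RefSeq start, whose window holds the same match. Only the exact letters of the 4 patterns were searched. Lower case in the heavy chain windows therefore does not show that an interferon element is absent from them.

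The peptide transporter genes and their partner tapasin rose with LPS, with fold changes above those of the class I chains (the differences between genes were not tested). Tap1 (ENSMUSG00000037321, chr17:34187553-34197225, plus strand) and Tap2 (ENSMUSG00000024339, chr17:34203527-34216321, plus strand) encode the subunits of the TAP heterodimer. Tapbp (ENSMUSG00000024308, chr17:33915899-33929292, plus strand) encodes tapasin. Tap1 had 196, 269.7 and 202 CPM in calycosin plus LPS cells, 259, 253 and 289 CPM in LPS cells, and 22.4, 31.5 and 16.6 CPM in vehicle cells. The vehicle libraries were far below the rest, and calycosin plus LPS replicate 2 lay within the LPS range while replicates 1 and 3 lay below it. Tap1 rose 11.3-fold with LPS, the highest fold of the 10 (log2 fold change 3.50 ± 0.24 SE, edgeR adjusted p = 1.61e-06).

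Tap2 had 97.3, 135 and 93.8 CPM in calycosin plus LPS cells, 161, 156 and 186 CPM in LPS cells, and 40.1, 38.3 and 21.6 CPM in vehicle cells. The 3 groups did not overlap. Tap2 rose 5.02-fold with LPS (log2 fold change 2.33 ± 0.24 SE, edgeR adjusted p = 2.81e-05). Tapbp had 543, 759 and 535 CPM in calycosin plus LPS cells, 760.2, 733 and 803 CPM in LPS cells, and 148, 152 and 91.5 CPM in vehicle cells. Again calycosin plus LPS replicate 2 reached the LPS range and its fellow replicates did not. Tapbp rose 5.87-fold with LPS (log2 fold change 2.55 ± 0.22 SE, edgeR adjusted p = 8.13e-06). The TPM of Tap1 relative to Tap2 was 2.21 ± 0.102 in calycosin plus LPS cells, 1.86 ± 0.165 in LPS cells and 0.846 ± 0.180 in vehicle cells (SD, n = 3 each), a ratio chosen after its values were seen and given without a test.

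Tap1 and Psmb9 face away from each other, with RefSeq starts 226 bases apart, so that their promoter windows share 275 bases. The window of Tap1 at chr17:34187306-34187605 (GRCm38.p6, plus strand, RefSeq) is shown because it serves this divergent pair. It has no capitals, since none of the 4 interferon and NF-kappaB letter patterns above matched in it. That says only that these letters are not in this window.
Tap1: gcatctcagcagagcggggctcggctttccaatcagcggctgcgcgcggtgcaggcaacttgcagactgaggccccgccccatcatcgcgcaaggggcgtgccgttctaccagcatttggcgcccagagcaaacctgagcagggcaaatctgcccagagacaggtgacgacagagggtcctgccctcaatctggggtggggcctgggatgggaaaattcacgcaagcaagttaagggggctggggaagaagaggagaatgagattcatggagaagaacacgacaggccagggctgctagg
Both windows hold CCAAT, the core letters of the CCAAT box, at 1 and the same site within the bases they share. Of all windows, 37.4% hold these letters on either strand. The exons of the pair share 212 bases on opposite strands, and without a stated strandedness of the counting, reads from that stretch cannot be assigned to one of them. The same holds for Tap2 and Psmb8, which share 165 and 498 exonic bases with the antisense gene Gm20496, for Tap2 with Gm15821 (533 bases), for Tapbp with Gm19412 (904 bases), and for Nlrc5 with 9330175E14Rik (78 bases). Tapbp also shares 149 exonic bases with Zbtb22 on its own strand.

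The inducible catalytic subunits replace constitutive ones when an immunoproteasome is assembled: Psmb8 (beta5i, LMP7) takes the place of Psmb5, Psmb9 (beta1i, LMP2) that of Psmb6, and Psmb10 (beta2i, MECL-1) that of Psmb7. Psmb8 (ENSMUSG00000024338) lies at chr17:34197721-34201454 on the plus strand between Tap1 and Tap2, Psmb9 (ENSMUSG00000096727) at chr17:34181987-34187764 on the minus strand, and Psmb10 (ENSMUSG00000031897) outside the H2 complex at chr8:105935735-105938444 on the minus strand. Psmb8 had 78.3, 100.1 and 94.3 CPM in calycosin plus LPS cells, 173, 162 and 187 CPM in LPS cells, and 37.1, 48.1 and 33.0 CPM in vehicle cells. The 3 groups were well apart, and no library that stood apart in mitochondrial share crossed into another group. Psmb8 rose 4.41-fold with LPS (log2 fold change 2.14 ± 0.16 SE, edgeR adjusted p = 3.28e-06).

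Psmb9 had 30.4, 48.1 and 35.0 CPM in calycosin plus LPS cells, 46.6, 33.4 and 35.8 CPM in LPS cells, and 15.3, 15.3 and 4.35 CPM in vehicle cells. The groups with LPS overlapped fully, and vehicle replicate 3 was far below its fellows. Psmb9 rose 3.29-fold with LPS (log2 fold change 1.72 ± 0.41 SE, edgeR adjusted p = 0.00521), with the widest error of the 10. Psmb10 had 63.3, 88.8 and 60.0 CPM in calycosin plus LPS cells, 96.1, 90.4 and 105 CPM in LPS cells, and 18.5, 17.5 and 9.15 CPM in vehicle cells. Its groups did not overlap, although calycosin plus LPS replicate 2 came close to the lowest LPS library. Psmb10 rose 6.46-fold with LPS (log2 fold change 2.69 ± 0.26 SE, edgeR adjusted p = 1.93e-05).

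The window of Psmb8 at chr17:34197945-34198244 (GRCm38.p6, plus strand, RefSeq) is shown because Psmb8 is the one member that passed the test in all 3 comparisons. Its capitals mark TTCCCAGAA at position -97, a match to the gamma-activated site on both strands, which 8.30% of all windows hold.
Psmb8: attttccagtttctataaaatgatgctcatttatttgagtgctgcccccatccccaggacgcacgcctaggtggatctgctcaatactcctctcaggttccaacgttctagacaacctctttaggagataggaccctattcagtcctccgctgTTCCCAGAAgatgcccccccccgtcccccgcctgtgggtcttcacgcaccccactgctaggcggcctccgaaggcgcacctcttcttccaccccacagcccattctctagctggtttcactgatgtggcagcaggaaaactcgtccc
The windows of Tapbp, Psmb9 and Psmb10 held none of the 4 patterns. Of the 10 genes, 8 had a RefSeq window, and the exceptions were Tap2 and Nlrc5.

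Nlrc5 (ENSMUSG00000074151, chr8:94434356-94527272, plus strand) had 312, 364 and 318 CPM in calycosin plus LPS cells, 434, 406 and 371 CPM in LPS cells, and 58.9, 57.9 and 49.0 CPM in vehicle cells. The 3 groups did not overlap, and the vehicle libraries lay close together. Nlrc5 rose 7.30-fold with LPS (log2 fold change 2.87 ± 0.13 SE, edgeR adjusted p = 9.56e-08), with the lowest adjusted p of the 10.

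In all, 9 of the 10 genes were higher in LPS than in vehicle cells at an adjusted p below 0.05, where 27.3% of the 14458 genes tested were higher and 28.9% lower. The one not called was H2-D1, and no member was lower, either by edgeR at an unadjusted p below 0.05 or by DESeq2. For all 10 the LPS libraries lay above the vehicle libraries in CPM without overlap, as they did for 29.5% of genes tested. In TPM the groups overlapped for H2-D1, at 491, 489 and 589 in LPS and 864, 911 and 233 in vehicle replicates 1 to 3. The median log2 fold change was 2.23 over the 10 genes, against -0.07 over all genes tested. On deposited TPM values the rises of H2-K1 and Psmb9, and without a filter that of B2m, did not pass the test and that of H2-D1 turned round, with values given under the dependence on processing. On log2(TPM + 1) with the filter, 1342 of 12879 genes tested were higher with LPS and 6432 lower. Without the filter 1503 of 25775 were higher and 6136 lower.

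**Figure D2:**
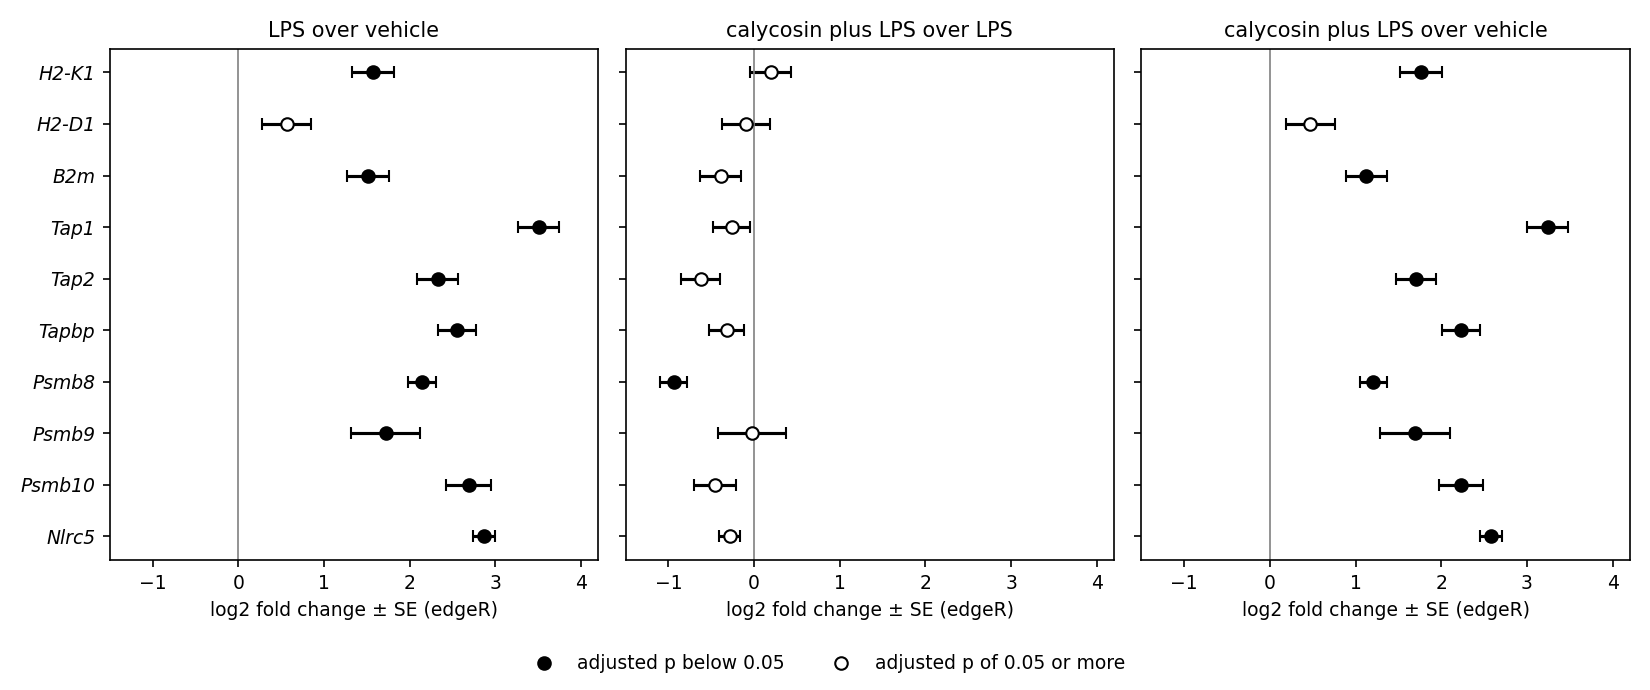
Log2 fold changes of the 10 genes (horizontal axis, edgeR, ± SE) in 3 comparisons, with filled points for an adjusted p below 0.05. LPS over vehicle has 9 filled points, calycosin plus LPS over LPS has only that of Psmb8, and calycosin plus LPS over vehicle has 9.

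Setting calycosin plus LPS against LPS asks how levels after LPS differed with pretreatment. Without a group given calycosin alone, a changed LPS response and a changed resting level cannot be told apart. Psmb8 was 1.91-fold lower in calycosin plus LPS cells than in LPS cells (log2 fold change -0.94 ± 0.16 SE, edgeR adjusted p = 0.00225), and it was the only one of the 10 called, where 12.9% of genes tested were lower and 16.1% higher. No member was called higher by edgeR, also at an unadjusted p below 0.05, nor by DESeq2. The fold changes of 9 of 10 were negative, from -0.94 for Psmb8 to -0.03 for Psmb9, and that of H2-K1 was 0.19. Their median was -0.30, against 0.02 over all genes tested. Without overlap, the calycosin plus LPS libraries lay below the LPS libraries for 5 genes, B2m, Tap2, Psmb8, Psmb10 and Nlrc5, and 23.4% of genes tested did the same. On the limma scale of deposited TPM values the difference of Psmb8 was -0.65 and was not called (adjusted p = 0.221).

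The other members did not pass the test with all libraries, and the 95% intervals of their log2 fold changes are given unadjusted. For Tap2 the value was -0.62 (interval -1.14 to -0.11, edgeR adjusted p = 0.0687). Nlrc5 had a value of -0.28 (interval -0.56 to -0.01, edgeR adjusted p = 0.106). Psmb10 had a value of -0.46 (interval -1.02 to 0.10, edgeR adjusted p = 0.195). The intervals of Tap2 and Nlrc5 lie below 0 and that of Psmb10 includes it. B2m, Tapbp and Tap1 had values of -0.39, -0.32 and -0.26 with edgeR adjusted p of 0.253, 0.278 and 0.399. The intervals of Psmb9 (-0.91 to 0.85), H2-D1 (-0.73 to 0.54) and H2-K1 (-0.34 to 0.73) include 0 and leave changes of up to those bounds possible in either direction.

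The libraries that stood apart weighed on these genes. In vehicle replicate 3, 9 of the 10 were below the mean of replicates 1 and 2, with a median log2 deviation of -0.71, from -1.82 for Psmb9 to -0.12 for H2-K1, and B2m was above it at 0.88. Over all genes tested the median deviation was -0.01, with quartiles at -0.43 and 0.41. In calycosin plus LPS replicate 2, 8 of the 10 were above the mean of replicates 1 and 3, with a median of 0.47. H2-K1 (-0.35, 54.3% GC) and B2m (-0.24) were below it. Over all genes tested the median deviation in this library was 0.02, with quartiles at -0.24 and 0.27. The deviations moved with the GC content of transcripts: genes under 45% GC had a median of 0.32 in vehicle replicate 3 and genes over 55% GC one of -0.34, and in calycosin plus LPS replicate 2 these were -0.19 and 0.25. The longest transcript of B2m has 41.2% GC, while those of the other 9 genes have 52.5% to 57.1%. The part of GC content in the results was not tested beyond the GC correction given under the dependence on processing.

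Without both libraries, 7 of the 10 genes were lower in calycosin plus LPS than in LPS cells, where 18% of genes tested were lower. Psmb8 had a log2 fold change of -0.99 (edgeR adjusted p = 0.00132). Tap2 had one of -0.79 (edgeR adjusted p = 0.000634). Psmb10 had one of -0.64 (edgeR adjusted p = 0.00147). These 3 were the largest, and Tapbp (-0.48), Nlrc5 (-0.33), B2m (-0.29) and H2-D1 (-0.26) also passed. Tap1 (-0.40, edgeR adjusted p = 0.0538), Psmb9 (-0.22, edgeR adjusted p = 0.301) and H2-K1 (0.32, edgeR adjusted p = 0.372) did not. In the same fit all 10 were higher in LPS than in vehicle cells, where 31% of genes tested were higher, and H2-D1 had the smallest difference (0.22, edgeR adjusted p = 0.0496). The vehicle libraries left in that fit had 3.79% and 3.68% mitochondrial counts, and all libraries given LPS had over 10%. Treatment and mitochondrial share therefore cannot be told apart in its comparisons with vehicle. The call of Psmb8 thus held with and without these libraries, and between these 2 fits those of Tap2, Psmb10, Tapbp, Nlrc5, B2m and H2-D1 were made in the one without them.

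**Figure D3:**
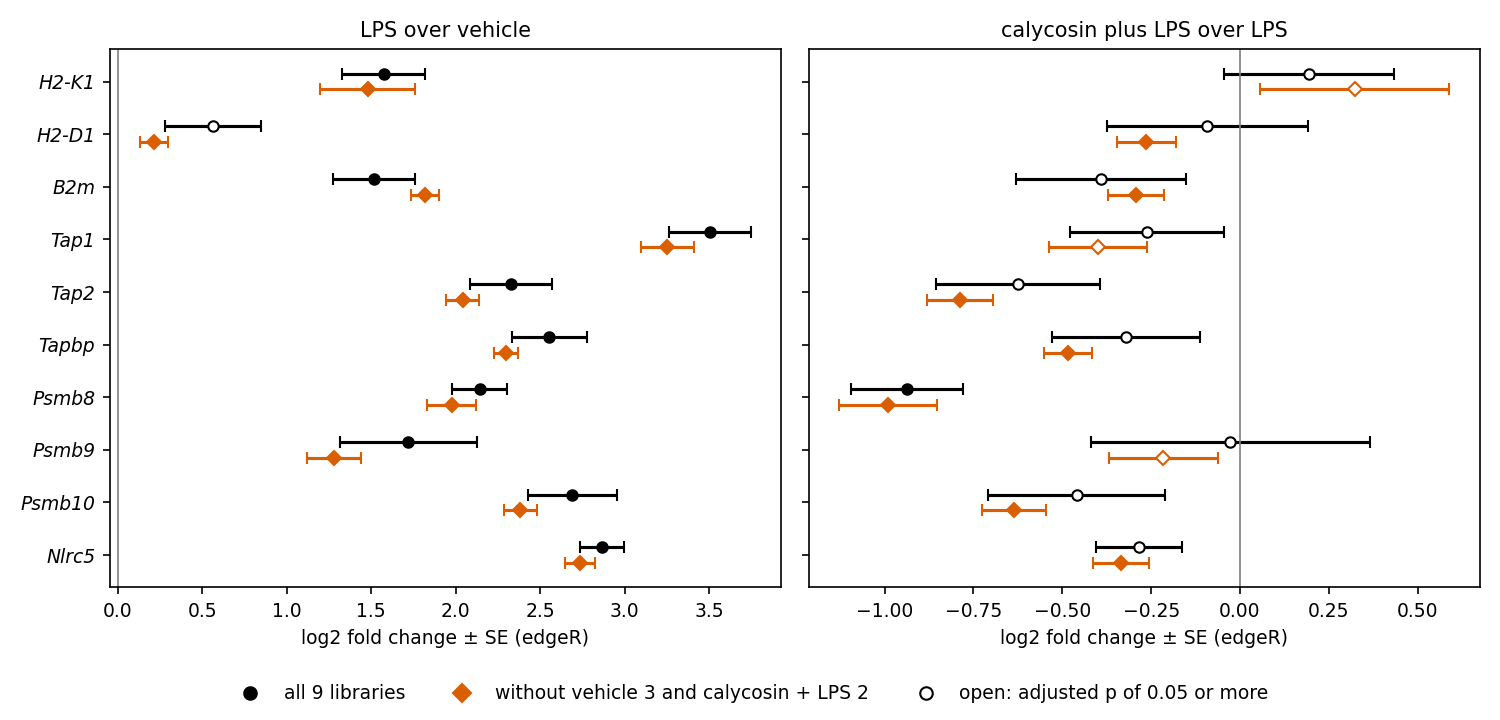
Log2 fold changes (horizontal axis, edgeR, ± SE) with all 9 libraries (black circles) and without vehicle replicate 3 and calycosin plus LPS replicate 2 (orange diamonds), open where the adjusted p was 0.05 or more. The right panel, calycosin plus LPS over LPS, has 1 filled circle (Psmb8) and 7 filled diamonds, and the errors of most members are narrower without these libraries.

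Calycosin plus LPS and vehicle differed in the same 9 genes as LPS and vehicle, a comparison that shares its vehicle libraries with that one. The 9 were higher in calycosin plus LPS cells, where 25.4% of genes tested were higher and 23.6% lower, and the groups did not overlap for 9 genes, as for 29.1% of genes tested. Tap1 was 9.47-fold higher in calycosin plus LPS than in vehicle cells, Nlrc5 5.99-fold, Tapbp 4.70-fold, Psmb10 4.69-fold and H2-K1 3.40-fold. Psmb8, which rose 4.41-fold with LPS alone, was 2.30-fold higher in calycosin plus LPS than in vehicle cells (log2 fold change 1.20 ± 0.16 SE, edgeR adjusted p = 0.000211). On deposited TPM values Psmb8 and Psmb9 were not called in this comparison. With the filter, 1331 of 12879 genes tested were higher on log2(TPM + 1) and 3386 lower. Without it 1412 of 25775 were higher and 2794 lower. The median log2 fold change was 1.74 over the 10 genes. H2-D1 had a value of 0.47 (95% interval -0.17 to 1.11, edgeR adjusted p = 0.195), and without both libraries that stood apart one of -0.05 (edgeR adjusted p = 0.671), with 9 members called higher, where 30.4% of genes tested were. It was called higher in 4 of 24 alternatives, up to 1.13.

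Ratios within a library set each inducible subunit beside the constitutive one it replaces, per transcript length. The TPM of Psmb8 relative to Psmb5 was 1.11, 1.00 and 1.31 in calycosin plus LPS cells, 1.56, 1.65 and 2.18 in LPS cells, and 0.207, 0.263 and 0.325 in vehicle cells. The inducible subunit thus exceeded the constitutive one in all libraries given LPS and stayed below it in vehicle cells, and the groups did not overlap. The mean ratio was 4.36-fold that of vehicle cells in calycosin plus LPS cells and 6.82-fold in LPS cells, as geometric means. Psmb9 relative to Psmb6 was 0.206, 0.253 and 0.210 in calycosin plus LPS cells, 0.188, 0.128 and 0.144 in LPS cells, and 0.0695, 0.0695 and 0.0318 in vehicle cells. This ratio was higher in all calycosin plus LPS libraries than in all LPS libraries, the reverse of Psmb8 to Psmb5. Against vehicle both ratios were higher in calycosin plus LPS cells. Psmb10 relative to Psmb7 was 0.830, 1.06 and 0.798 in calycosin plus LPS cells, 1.06, 0.874 and 0.910 in LPS cells, and 0.197, 0.176 and 0.152 in vehicle cells, and the groups given LPS overlapped.

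The log2 difference between calycosin plus LPS and LPS cells was -0.65 for Psmb8 to Psmb5 and 0.55 for Psmb9 to Psmb6, both with p = 0.1 in a two-sided exact permutation test, the smallest that 3 against 3 libraries allow, and -0.08 with p = 0.6 for Psmb10 to Psmb7. For every ratio the difference from vehicle had that smallest p of 0.1 in the exact permutation test, in calycosin plus LPS cells and in LPS cells. The 9 comparisons therefore cannot pass 0.05, with or without adjustment. Psmb6, the denominator of the second ratio, fell with calycosin, at 96.5 ± 11.9 CPM in calycosin plus LPS cells and 147 ± 4.31 CPM in LPS cells (SD, n = 3 each, log2 fold change -0.61, edgeR adjusted p = 0.0291), while Psmb9 had 37.8 ± 9.20 and 38.6 ± 7.03 CPM.

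**Figure D4:**
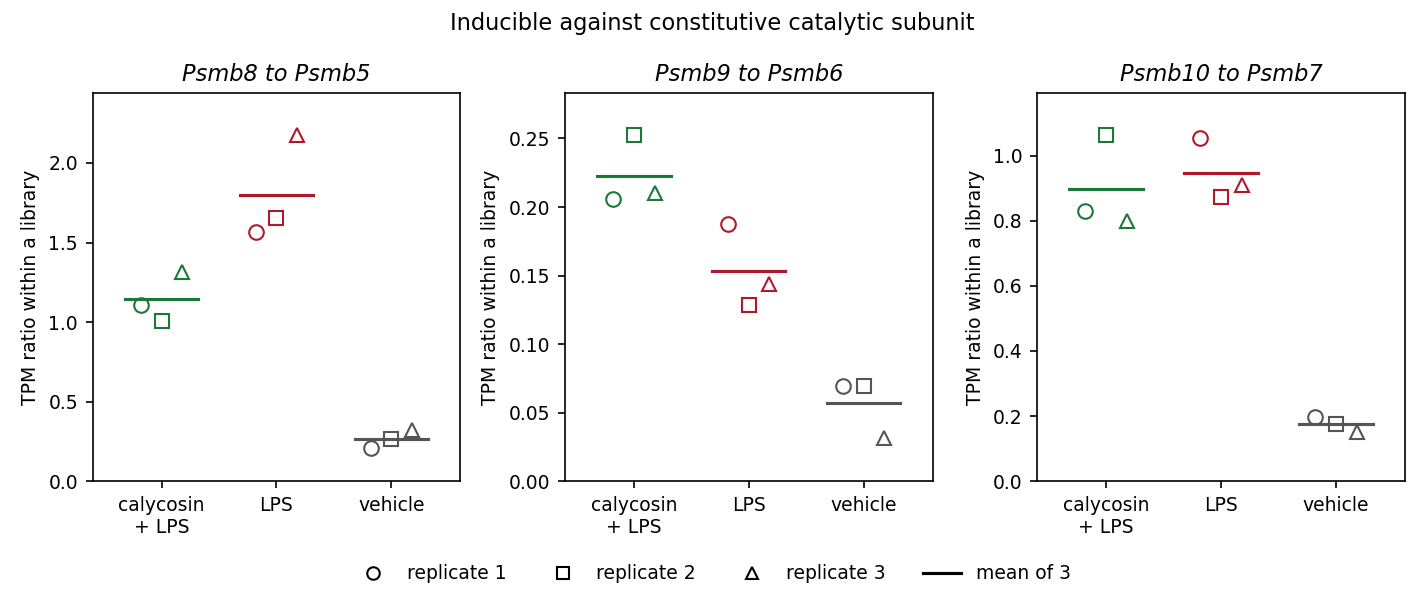
TPM of each inducible subunit divided by that of the constitutive subunit it replaces, within each library, on linear axes from 0; symbols mark replicates and bars the mean of 3. Psmb8 to Psmb5 is 1.14 ± 0.158 in calycosin plus LPS cells, 1.80 ± 0.330 in LPS cells and 0.265 ± 0.0587 in vehicle cells (SD, n = 3 each), and the vehicle libraries lie lowest in each panel.

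Other genes of the route were taken from lists, with the counts over all genes tested above as background. For LPS over vehicle the median log2 fold change was 0.23 for the constitutive subunits, 1.10 for activators and assembly, 0.73 for loading and trimming, 1.36 for class Ib genes, 0.87 for regulators and 0.40 for class II genes, against -0.07 over all genes. For calycosin plus LPS over LPS the medians were -0.39, -0.70, -0.16, 0.07, 0.04 and -0.21 in the same order, against 0.02. Of the 3 constitutive subunits, Psmb5 was lower with LPS and the others were not called. Psmb5 had 54.1 ± 5.15 CPM in LPS cells and 82.2 ± 24.6 CPM in vehicle cells (log2 fold change -0.60, edgeR adjusted p = 0.0438). Its groups overlapped, since vehicle replicate 3 (53.8 CPM) lay within the LPS range (49.2 to 59.5 CPM). All 5 activator and assembly genes were higher with LPS. Psme1 and Psme2, subunits of the PA28 cap that opens the proteasome, rose by 2.14 and 1.63 on the log2 scale, and Pomp, which matures new proteasomes, by 1.10. Psme3, the related nuclear activator, rose by 0.68. Between calycosin plus LPS and LPS cells 2 of the 5 were lower: Psme1 had 70.3 ± 1.54 CPM in calycosin plus LPS cells and 135 ± 20.9 CPM in LPS cells (SD, n = 3 each, log2 fold change -0.94, edgeR adjusted p = 0.000651), and Pomp had a log2 fold change of -0.79 (edgeR adjusted p = 0.0191).

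Of 6 peptide loading and trimming genes 3 rose with LPS. Tapbpl, which encodes the tapasin-related editor TAPBPR, had 34.3 ± 1.66 CPM in calycosin plus LPS cells, 52.7 ± 0.666 CPM in LPS cells and 7.58 ± 0.253 CPM in vehicle cells (SD, n = 3 each). It rose 6.96-fold with LPS and was 1.54-fold lower with calycosin than with LPS alone (edgeR adjusted p = 2.9e-08 and 0.00181). Erap1 and Lnpep, aminopeptidases that trim peptides, rose by 1.78 and 1.19 on the log2 scale with LPS. Lnpep was also lower with calycosin (log2 fold change -0.44, edgeR adjusted p = 0.049).

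Of 19 class Ib and class I-like genes 17 could be tested, and the exceptions were H2-T3 and Cd1d1, with at most 2 and 28 counts. With LPS 10 were higher and 1 lower. H2-T24 rose 8.71-fold, H2-K2 7.82-fold and H2-T22 5.60-fold, and H2-M2 had 0.683 ± 0.174 CPM in LPS cells and no count in vehicle cells. Hfe, a class I-like protein of iron control, was lower (log2 fold change -0.67, edgeR adjusted p = 0.0493). The groups overlapped for Hfe, with vehicle replicate 3 at 5.50 CPM and the LPS libraries at 4.59 to 6.02 CPM. Many of the class Ib genes are close copies of each other, so their counts are uncertain in the same way as those of the heavy chains. With calycosin, Mr1, which presents vitamin B metabolites, was higher at 23.4 ± 3.82 CPM in calycosin plus LPS cells and 11.4 ± 0.761 CPM in LPS cells (log2 fold change 1.04, edgeR adjusted p = 0.0123), while Hfe (-1.03) and H2-T24 (-0.51) were lower.

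Of 20 regulators 15 were higher with LPS and 1 lower. The interferon-response factors Stat2 and Irf1 rose 14.2-fold and 13.2-fold, and Ifnb1, the gene of interferon beta, had 5.47 ± 1.07 CPM in calycosin plus LPS cells, 3.90 ± 1.04 CPM in LPS cells and 2, 0 and 0 counts in the vehicle libraries. Rfxap, a subunit of the RFX complex on which NLRC5 acts at class I promoters, was lower with LPS (log2 fold change -0.78, edgeR adjusted p = 0.00211). With calycosin 3 regulators were higher and 2 lower. Nfkb1 had 397 ± 30.4 CPM in calycosin plus LPS cells and 802 ± 57.3 CPM in LPS cells (log2 fold change -1.02, edgeR adjusted p = 0.000292), and Irf9 was lower too (-0.84). Irf1 had 208 ± 10.9 CPM in calycosin plus LPS cells and 119.5 ± 13.0 CPM in LPS cells (log2 fold change 0.80, edgeR adjusted p = 0.00205), and Rfxap (0.94) and Irf8 (0.47) were higher as well.

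Class II genes, which serve the other presentation route, were mostly silent. Of 8 only 4 could be tested, and Ciita, the class II activator related to Nlrc5, had 4 counts at most. Cd74, the invariant chain, had 873 ± 105 CPM in calycosin plus LPS cells, 1017 ± 36.3 CPM in LPS cells and 409.98 ± 12.3 CPM in vehicle cells (SD, n = 3 each), and H2-Ab1 1.60 ± 0.511, 1.82 ± 0.206 and 0.832 ± 0.135 CPM in the same groups. Both rose with LPS (edgeR adjusted p = 1.5e-05 and 0.0111), H2-DMb2 was lower at 0.0577 CPM in LPS cells and 0.393 CPM in vehicle cells, and between calycosin plus LPS and LPS cells the edgeR adjusted p of the 4 ran from 0.208 to 0.663. In calycosin plus LPS over vehicle, 2 of 5 activator and assembly genes, 5 of 6 loading and trimming genes, 10 of 17 class Ib genes, 15 of 20 regulators and 2 of 4 class II genes were higher, and Psmb5, Hfe and H2-DMa were lower.

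Across the 9 libraries the 10 genes varied together to different degrees. As a description over libraries that share their treatment groups, the highest Pearson correlation of log2 CPM was 0.998 between Tapbp and Psmb10 and the lowest 0.336 between H2-D1 and B2m. The median correlation of a gene with the other 9 was lowest for H2-D1, at 0.731, and highest for Tap2, at 0.962. Among 8730 genes outside the lists with at least 10 CPM in a group, the 5 whose log2 CPM was closest to the mean standardised pattern of the 10 over 9 libraries were Carhsp1, a nucleic acid binding phosphoprotein, Junb, an AP-1 factor, Tgm2, a transglutaminase, Rhoc, a small GTPase, and Fcgr1, the high-affinity IgG receptor, with r from 0.997 to 0.998. Carhsp1, for one, had 139 ± 26.9 CPM in calycosin plus LPS cells, 194 ± 13.6 CPM in LPS cells and 34.1 ± 8.43 CPM in vehicle cells (SD, n = 3 each).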

How the data were processed

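The authors deposited raw counts per gene for 51826 Ensembl genes, whole numbers without normalisation, and TPM values for 51799 genes in the layout of a StringTie abundance table, per the file headers. The submitters' processing notes name the build mm10, the trimmer Trimmomatic 0.36, the aligner HISAT2 2.0 and the assembler StringTie 1.3.3b, in no stated order. Not given in the sources used here are the counter, the annotation, the strandedness and how reads with several matches were treated.

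Genes were joined by Ensembl identifier and grouped by the treatment label. With edgeR 4.0.16 in R 4.3.3, filterByExpr kept 14458 genes, TMM factors (0.786 to 1.42) scaled the libraries, and 1 quasi-likelihood model with group as its term was fitted to the 9 libraries and tested with the two-sided F test. Adjustment of p over the genes tested followed Benjamini and Hochberg, at a threshold of 0.05. The SE was derived from the test statistic. A library totalled between 33925342 and 38524105 counts with calycosin plus LPS, between 27784737 and 31038241 with LPS alone, and between 31285425 and 35138718 with vehicle. The lowest count of a member was 143, for Psmb9 in vehicle replicate 3. No library was a duplicate of another of its group, and pairs across groups were not checked for this. TPM ratios were compared with exact permutation tests. The fits were tested on simulated data.

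The members, lists, motifs and tests were chosen with earlier results of these data known. Named list genes were the 4 called with the largest change, or the 2 with the highest level; Irf8 in calycosin plus LPS over LPS, Hfe and Rfxap in LPS over vehicle, and Hfe in calycosin plus LPS over vehicle were named after their values were seen, and 1 list gene is not reported here. Alternatives were DESeq2 1.42.0, limma 3.58.1 on log2(TPM + 1) or log2(TPM + 0.1), other scalings, no filter, a mitochondrial covariate, 2 groups only, a replicate block and leaving out libraries. A GC offset and splits at 10% mitochondrial counts were added after seeing the data. Promoter windows come from RefSeq (GRCm38.p6), positions from GENCODE on GRCm38.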

Additional observations from a re-analysis of the deposited data

How the results depend on the processing

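The 9 rises of members with LPS, and the 9 in calycosin plus LPS over vehicle, stayed within 1.5 times that number in all alternatives but one. On log2(TPM + 1) without a filter, 4 members and 1412 of 25775 genes were higher in the second comparison. The number lower in calycosin plus LPS than in LPS cells, 1 with all libraries, depended on the setting. It was 2 with DESeq2 (Tap2 added, adjusted p = 0.0385), where 8.9% of genes were lower. In the 3 limma fits of TPM values it was 0, where 2.2%, 2.2% and 1.2% of genes were lower. It was 3 with 2 groups only, 6 with the mitochondrial share as covariate and 5 with the GC content offset. Without vehicle replicate 3 and calycosin plus LPS replicate 2 it was 7. The share of all genes tested that was lower differed too, at 17.6%, 22.9%, 17.4% and 18% in these edgeR fits, against 12.9% with all libraries. The split at over 10% mitochondrial counts keeps the same calycosin plus LPS and LPS libraries as the last of these fits. It is therefore no separate check of this comparison. Leaving out 1 library at a time gave 1 to 5, with 5 without vehicle replicate 3 (17.2% of all genes) and 2 without calycosin plus LPS replicate 2 (9.7%). In the other fits with 1 library left out, 8.2% to 11.7% of all genes were lower. The cause was not tested. In the limma fits Psmb8 had adjusted p of 0.221, 0.220 and 0.386. Upper-quartile factors and TPM moved the median of all genes by -0.21 and -0.71 for LPS over vehicle, and TPM by 0.30 for calycosin plus LPS over LPS.

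Fold changes of Psmb9, H2-D1, Tap1, Nlrc5 and H2-K1 turned round in calycosin plus LPS over LPS, none of them called. Psmb9 was at 0.038 with upper-quartile factors, 0.025 without a filter and 0.022 with the mitochondrial covariate, 0.26 in the limma fits, and -0.23 to 0.13 leaving out 1 library. In the limma fits H2-D1 was at 0.23, Tap1 at 0.088 (0.089 with a pseudocount of 0.1) and Nlrc5 at 0.16. Leaving out 1 library, H2-D1 ranged from -0.28 to 0.0077 and H2-K1 from -0.0073 to 0.52. H2-D1 also turned round for LPS over vehicle in the limma fits (-0.13) and for calycosin plus LPS over vehicle without both libraries (-0.048).

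For LPS over vehicle H2-D1 was called in 4 of 23 alternatives: 0.90 with the mitochondrial covariate, 1.00 with the GC offset, 0.22 without both libraries, and 1.40 among libraries with over 10% mitochondrial counts, where vehicle replicate 3 is alone and assumed to vary like the other groups. Libraries under 10% included no LPS library. For calycosin plus LPS over vehicle H2-D1 was called in 4 of 24: 0.83 with the covariate, 0.80 with the GC offset, 1.13 among libraries over 10% and 0.51 among those under 10%. In the limma fits H2-K1 (0.78, adjusted p = 0.0552, 0.0567 and 0.115) and Psmb9 (1.07 to 1.14, adjusted p = 0.122 to 0.253) were not called for LPS over vehicle, nor was B2m without a filter (0.80, adjusted p = 0.136). For calycosin plus LPS over vehicle Psmb8 (0.77 to 0.78, adjusted p = 0.0904, 0.0944 and 0.173) and Psmb9 (1.33 to 1.41, adjusted p = 0.0876, 0.0934 and 0.198) were not called in these fits, and B2m, Tap2 and Psmb10 were not called without a filter (adjusted p = 0.209, 0.0885 and 0.0534).

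With a replicate block the numbers stayed at 9 higher in LPS over vehicle and 1 lower in calycosin plus LPS over LPS. In calycosin plus LPS over vehicle 9 members were again higher. Of 14458 genes tested in that fit, 3910, 1701 (11.8%) and 3604 went the same way in these 3 comparisons. The log2 ratio differences are the same with the block by arithmetic (2.77 for Psmb8 to Psmb5, LPS over vehicle), so it is no check of them. To look for pairing, the deviations of log2 CPM from the group mean of each gene were correlated between libraries. Those of same-numbered libraries correlated at -0.04, -0.10 and -0.14 in LPS and vehicle, at -0.04, -0.05 and -0.09 in calycosin plus LPS and LPS, and at -0.17, 0.36 and 0.29 in calycosin plus LPS and vehicle. Calycosin plus LPS replicate 2 correlated at 0.36 with vehicle replicate 1 and at -0.47 with vehicle replicate 3. Since not every same-numbered pair exceeded 0.1, the numbers were not taken to pair the libraries. All 81 alternatives of the 9 ratio differences kept their direction. With 3 libraries a group, the intervals of the fold changes limit what could be called.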
